A study of Homo sapiens with 18 samples.

Results

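Gene expression in U2OS cells carrying mCherry-EWS(YS37)-FLI1 was compared with that in U2OS cells carrying mCherry alone. The comparison takes the 3 untreated libraries titled with the first construct and the 3 untreated libraries titled with mCherry alone, 6 of the 18 libraries of the series. U2OS is a human osteosarcoma cell line, and both constructs were integrated into it, so every cell compared was an engineered U2OS cell with an mCherry tag. The labels call the 3 libraries of a construct biological replicates, name no independently made lines, and do not say whether a line was a clone or a pool. The series measured polyA RNA and also holds 3 untreated EWS-FLI1 libraries, 3 untreated EWS-FLI1mut libraries and 6 libraries of EWS-FLI1 cells given LY2835219. The untreated EWS-FLI1 and EWS-FLI1mut libraries, both with an mCherry tag, are set beside the comparison here as reference levels. The labels state neither the EWS-FLI1mut change nor the YS37 change, and the design text spells the latter 37YS.

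EWS-FLI1 is the fusion oncoprotein of Ewing sarcoma, which joins the amino-terminal, tyrosine-rich low-complexity domain of EWSR1 to the ETS DNA-binding domain of FLI1. The ETS domain recognises a GGAA core, and the fusion also acts at repeats of GGAA, where the low-complexity domain helps molecules of the fusion to gather. In earlier work YS37 denotes a fusion whose low-complexity tyrosines were replaced by serines, a change that weakens this gathering and leaves the DNA-binding domain in place. The comparison therefore asks which genes differ in cells that carry such an altered fusion. U2OS cells express no fusion of their own.

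The 6 libraries held 16261034 to 20270637 estimated counts, of which 4.43% to 4.99% in mCherry cells and 4.58% to 4.82% in YS37 cells were mitochondrial. On the first principal component of the 12 untreated libraries (22.7% of the variance) the 3 YS37 libraries lay between 41.4 and 43.9 and the other 9 between -22.3 and -4.16. Levels are given as CPM, counts scaled to a common library total after trimmed-mean (TMM) scaling, with the standard deviation over 3 libraries where a mean is given. Log2 fold changes are given with their standard error and were tested with edgeR's quasi-likelihood test. A gene was called at a Benjamini-Hochberg adjusted p under 0.05 over 16786 genes, and "rose" or "fell" is used of called genes. The p-values measure the spread between these libraries and do not cover differences between separately made lines.

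FLI1, an ETS factor whose 3' part forms the fusion, was at 1001, 987 and 1069 CPM in the YS37 libraries and at 1.16, 0.426 and 0.0534 CPM in the mCherry libraries. Every YS37 library was far above every mCherry library. FLI1 (ENSG00000151702, chromosome 11, 128686535 to 128813267 of hg38) rose by log2 10.83 ± 0.17, and its level was also above that with EWS-FLI1 (247 ± 16.3 CPM) and EWS-FLI1mut (642 ± 19.9 CPM). EWSR1 was at 948, 918 and 975 CPM with YS37 and at 348, 329 and 343 CPM with mCherry, a rise of 1.48 ± 0.05. With transcript-length offsets the rise of EWSR1 was 2.92, and its TPM was 1609 ± 24.2 against 222 ± 11.9. The EWSR1 excess over the mCherry mean was 0.595 ± 0.0108 CPM for each CPM of FLI1 with YS37, 1.62 ± 0.0857 with EWS-FLI1 and 1.30 ± 0.0307 with EWS-FLI1mut, on the count scale, which takes no account of transcript length. Both parts of the fusion were thus measured in the YS37 libraries, with less EWSR1 excess per FLI1 than in the 2 other fusion groups. Reads of a transgene and of the endogenous gene were not separated, and whether altered codons in the YS37 part kept reads from matching the reference EWSR1 transcripts was not tested.

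In all, 1937 genes rose and 1708 fell in YS37 cells, 11.5% and 10.2% of the genes tested and 21.7% together. Most changes were small: 1283 of the rises and 985 of the falls were under 0.5 on the log2 scale, 236 genes (1.41%) rose and 246 (1.47%) fell by at least 1, and 72 and 53 by at least 2. All 3 YS37 libraries lay above all 3 mCherry libraries for 3091 genes (18.4%) and below them for 2906 (17.3%). Of the called genes 3572 were protein coding. Over the whole set of tested genes the log2 fold change had a median of -0.003. Without scaling factors 1602 genes rose and 2138 fell, so the split between the directions depended on the scaling.

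**Figure D1:**
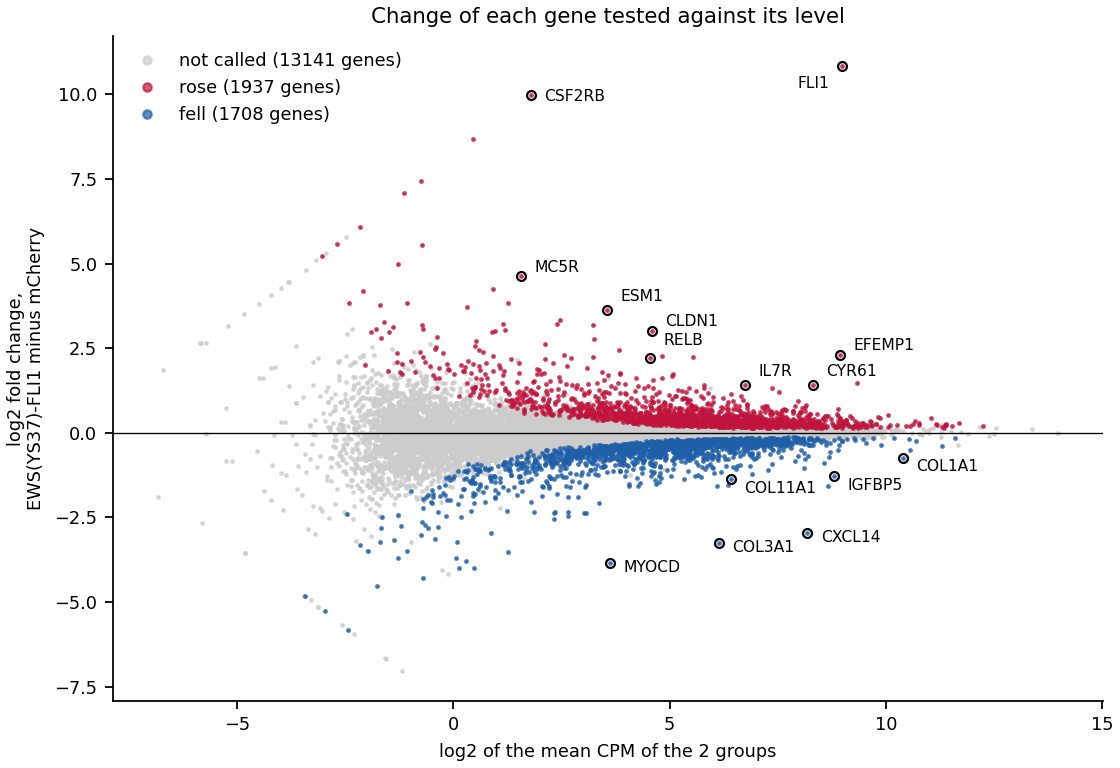
Log2 fold change of every gene tested (EWS(YS37)-FLI1 minus mCherry, vertical axis) against the log2 of the mean CPM of the 2 groups (horizontal axis). Red points rose (1937 genes), blue points fell (1708), grey points were not called, and circles mark named genes. The fitted value of a gene at 0 in a group, such as CSF2RB, depends on a small count added by the fit. FLI1 and CSF2RB lie highest, while MYOCD, COL3A1 and CXCL14 lie far below 0.

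Among the 15 rising genes named for the size of their change at 5 CPM or more were 3 cell-surface receptors beside ROBO4. CSF2RB, the signalling chain shared by the receptors for GM-CSF, IL-3 and IL-5, was at 5.68, 7.00 and 8.04 CPM with YS37 and had 0 counts in all 3 mCherry libraries. With 391 counts against a floor of 3 counts over the mCherry group, CSF2RB (ENSG00000100368, chromosome 22, 36913628 to 36940449) was at least 125.5-fold higher (adjusted p = 1.62e-07). It had 10 counts over the EWS-FLI1 libraries and none over the EWS-FLI1mut libraries. MC5R, a melanocortin receptor, was at 5.57, 5.95 and 5.50 CPM against 0.316, 0.305 and 0.0534 CPM, and rose by 4.63 ± 0.47. GPR4, a proton-sensing receptor, was at 16, 14.9 and 15.5 CPM against 3.37, 3.23 and 3.20 CPM and rose by 2.24 ± 0.23. Lack of overlap between the libraries of the 2 groups was a condition for a place among the 15, so it is no separate result for these receptors.

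ESM1, a proteoglycan secreted by endothelial cells, was at 18.6, 21.9 and 24.4 CPM with YS37 and at 1.27, 2.56 and 1.44 CPM with mCherry. ESM1 (ENSG00000164283, chromosome 5, 54977864 to 55022671) rose by 3.64 ± 0.30. CDH5, the cadherin of endothelial junctions, was at 9.89, 8.27 and 12 CPM against 1.27, 1.04 and 0.694 CPM, and rose by 3.32 ± 0.27. ROBO4, an endothelial guidance receptor, was at 12.9, 8.69 and 7.18 CPM against 0.685, 1.16 and 1.23 CPM. ROBO4 (ENSG00000154133, chromosome 11, 124883691 to 124898500) rose by 3.22 ± 0.29. Each of these genes was higher in every YS37 library than in any mCherry library, at levels that stayed under 25 CPM.

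Set directly against the other fusions, ESM1 was higher with YS37 than with EWS-FLI1 (2.39 ± 0.27) and EWS-FLI1mut (2.76 ± 0.28). ROBO4 was also higher than in both, by 3.03 ± 0.29 and 3.84 ± 0.31. CDH5 was higher than with EWS-FLI1mut (4.19 ± 0.29), while the difference from EWS-FLI1, which held 6.96 ± 0.499 CPM, was not called (0.53 ± 0.22, adjusted p = 0.0787). In the whole transcriptome 16.3% of genes were higher and 14.8% lower with YS37 than with EWS-FLI1, and 14.5% were higher and 12.7% lower than with EWS-FLI1mut. These comparisons use the same 3 YS37 libraries as the comparison with mCherry. FLI1 RNA was also higher with YS37 than with EWS-FLI1 (2.04 ± 0.09) and EWS-FLI1mut (0.67 ± 0.09). Construct RNA level thus differs along with the construct in every comparison between fusions given here. Its part in the differences was not tested.

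Of the other rising genes named by size, CLDN1, a tight junction protein, was at 39.3, 44.3 and 44.9 CPM against 5.22, 5.36 and 5.39 CPM (3.01 ± 0.13). EFEMP1, a fibulin of the extracellular matrix, was the most abundant of the 15 leading rises after FLI1, at 767, 863 and 837 CPM against 152, 167 and 179 CPM (2.31 ± 0.07). It stood at 177 ± 10.2 CPM with EWS-FLI1 and 237 ± 2.94 CPM with EWS-FLI1mut, both called lower than with YS37. LAMP3, a lysosome-associated membrane protein of dendritic cells, averaged 23.9 ± 1.14 CPM against 4.40 ± 1.35 CPM (2.45 ± 0.19). COL13A1, a transmembrane collagen, averaged 47.0 ± 3.91 CPM against 9.81 ± 0.485 CPM (2.26 ± 0.12). KCTD16, an auxiliary subunit of GABA-B receptors, rose by 3.17 ± 0.28, CASP1, the inflammasome protease, by 2.62 ± 0.30, and ATOH8, a basic helix-loop-helix factor, by 2.29 ± 0.30. Naming by size took only genes whose libraries did not overlap between the 2 groups.

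**Figure D2:**
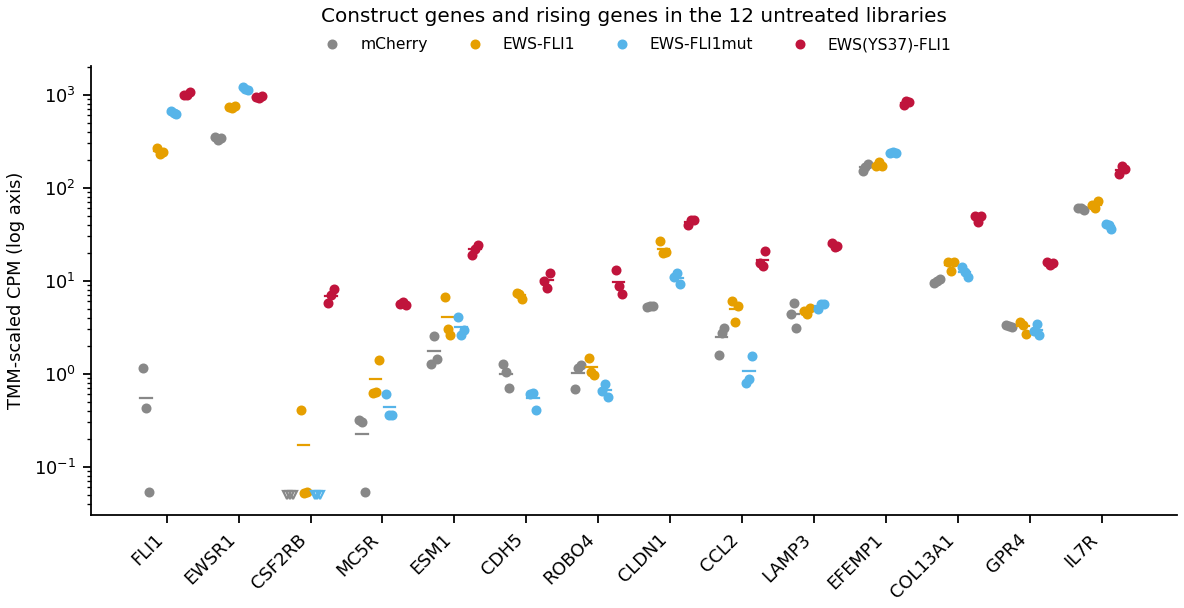
TMM-scaled CPM (log axis) of the construct genes FLI1 and EWSR1 and of 12 rising genes in each untreated library. Points are libraries, coloured by construct, short lines are group means, and open triangles at the foot mark libraries under 0.05 CPM. The 3 YS37 libraries lie above the mCherry libraries for all 14 genes, which naming by size required of most of them. The EWS-FLI1 libraries also lie above them for genes that include MC5R, ESM1, CDH5, CLDN1, CCL2 and COL13A1.

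Markers of the cell types named by such genes were followed as whole lists. The median log2 of 26 endothelial markers tested was 0.14, against -0.003 for all genes. Of them, 6 rose and 1 fell (23.1% and 3.85%, against 11.5% and 10.2% of all genes). Besides ESM1, CDH5 and ROBO4, these were ENG, a TGF-beta co-receptor (1.06 ± 0.11), TIE1 (2.54 ± 0.70) and FLT1 (1.85 ± 0.49), both receptor tyrosine kinases near 1 CPM. The calls of TIE1 and FLT1 were lost without mCherry replicate 2. The defining endothelial genes PECAM1 (2.62 ± 0.409 CPM against 1.77 ± 0.0856), VWF (2.34 ± 0.760 against 2.20 ± 0.465) and KDR (0.287 ± 0.250 against 0.680 ± 0.142) were not called. The summed CPM of the list was 182 to 203 with YS37 and 128 to 146 with mCherry. ERG, an ETS factor of endothelial cells, fell (-0.73 ± 0.20), although not without mCherry replicate 3 or YS37 replicate 1. In bulk RNA a change in the number of U2OS cells that express a gene and a change in RNA per cell cannot be told apart.

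Of 13 blood cell markers tested, 5 rose (3 to 5 without single libraries) and 0 fell. The rises were 38.5% of the list, against 11.5% of all genes. The summed CPM of the list was 77.6 to 89.4 against 52.5 to 59.5. ITGAX, a leukocyte integrin chain, was at 14.1, 10.7 and 15.8 CPM against 3.27, 3.29 and 4.16 CPM (1.92 ± 0.22), and was higher than with EWS-FLI1 by 2.99 ± 0.24. CD34 rose by 0.59 ± 0.13 from 11.9 ± 1.81 CPM. The pan-leukocyte gene PTPRC was at 0.613 ± 0.387 CPM against 0.869 ± 0.350 CPM and was not called. ITGB2 (0.58 ± 0.16) and ITGAM (2.35 ± 0.66) were called, but not without mCherry replicate 2, nor was ITGAM without mCherry replicate 3. LAPTM5 (0.98 ± 0.31) was called, but not without mCherry replicate 1 or 3 or YS37 replicate 1 or 3. All libraries compared are titled U2OS, and how these changes were spread over the cells of a culture was not tested.

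NF-kB factors are dimers that wait in the cytoplasm bound to inhibitors of the IkB family and enter the nucleus after an IkB kinase acts on those inhibitors. In the alternative branch the kinase NIK (MAP3K14) leads to processing of NFKB2, the partner of RELB. Several of the inhibitors and subunits are themselves known target genes, which makes the family a common readout. Of the 26 subunits and regulators listed, all were tested, 22 rose and 1 fell, with a median log2 of 0.58 against -0.003 for all genes. The list was written with earlier results of these data known. All 3 YS37 libraries lay above all 3 mCherry libraries for 24 of the 26, as they did for 18.4% of all genes. Leaving out single libraries gave 17 to 20 rises, the other settings gave 14 to 22, and 11 members rose against a threshold of 0.5.

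Promoters of 3 of these genes are shown, picked because their RNA rose and their windows hold the NF-kB consensus. Their matches were therefore fixed by the choice. The windows are the 250 bases before the RefSeq start (GRCh38.p14), read along the gene's strand, and capitals mark matches to the NF-kB consensus on either strand. NFKBIA (chr14:35404750-35404999, minus strand) holds 1 match, 81 to 72 bases before the start. TNFAIP3 (chr6:137867009-137867258, plus strand) holds 2, at 67 to 58 and at 55 to 46 bases. BIRC3 (chr11:102317234-102317483, plus strand) holds 2, at 199 to 190 and at 135 to 126 bases.
NFKBIA: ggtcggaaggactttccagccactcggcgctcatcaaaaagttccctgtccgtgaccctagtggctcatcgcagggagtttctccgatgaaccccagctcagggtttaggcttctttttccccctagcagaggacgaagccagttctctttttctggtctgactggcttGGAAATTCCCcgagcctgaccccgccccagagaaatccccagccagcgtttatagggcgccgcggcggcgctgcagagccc
TNFAIP3: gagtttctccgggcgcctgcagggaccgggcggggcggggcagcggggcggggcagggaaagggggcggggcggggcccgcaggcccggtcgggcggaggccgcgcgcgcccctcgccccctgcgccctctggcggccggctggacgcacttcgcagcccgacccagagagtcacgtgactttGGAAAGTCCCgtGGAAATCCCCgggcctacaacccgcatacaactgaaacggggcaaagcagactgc
BIRC3: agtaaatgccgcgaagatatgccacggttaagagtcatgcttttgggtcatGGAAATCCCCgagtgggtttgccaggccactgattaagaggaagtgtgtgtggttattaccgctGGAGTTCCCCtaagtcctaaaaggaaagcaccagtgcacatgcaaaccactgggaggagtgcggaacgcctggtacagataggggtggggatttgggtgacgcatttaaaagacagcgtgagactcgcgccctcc

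Transcripts that start within 100 bases of that start carried 94.8% of the counts of NFKBIA, 51.8% of those of TNFAIP3 and 99.6% of those of BIRC3 in the YS37 libraries. The consensus was present in the windows of 11.7% of the 12187 tested genes that the promoter table holds, in 11.9% of those that rose by at least 1, and in 11.9% of those that fell by at least 1. Among the NF-kB list members that rose, 6 of the 19 with a window (31.6%) held it. A match is a description of the sequence and not evidence of binding.

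Among the subunits, RELB was at 44.6, 32.8 and 38.1 CPM with YS37 and at 8.43, 7.07 and 9.61 CPM with mCherry (2.19 ± 0.11, adjusted p = 2.63e-12). NFKB2 was at 82.1, 79.5 and 84.1 CPM against 38.3, 35.5 and 35.7 CPM (1.17 ± 0.07). NFKB1, the precursor of p50, was at 46.8, 45.5 and 46.2 CPM against 36.4, 26.0 and 31.5 CPM (0.56 ± 0.10), a call that was lost on the TPM scale. The YS37 libraries were above the mCherry libraries for all 3 genes. RELA was called at 0.18 ± 0.06 (116 ± 4.11 against 103 ± 3.06 CPM), but the call was lost in 5 of the 6 fits that left out a library. REL was not called (0.18 ± 0.08, adjusted p = 0.112).

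The inhibitors rose as well. NFKBIA, which encodes IkB-alpha, was at 64.2, 56.2 and 54.8 CPM against 24.9, 23.7 and 26.7 CPM (1.22 ± 0.08). NFKBIE rose by 1.23 ± 0.12, BCL3, a nuclear IkB protein that binds p50 and p52, by 1.15 ± 0.13, and NFKBIZ by 0.82 ± 0.09. TNFAIP3, the ubiquitin-editing enzyme A20 that limits the pathway, was at 25.5, 19 and 22.5 CPM against 5.59, 7.61 and 6.56 CPM (1.76 ± 0.12). TNIP1, a partner of A20, rose by 0.61 ± 0.06 and CYLD, a deubiquitinase, by 0.47 ± 0.09. Both activating and limiting members of the pathway were therefore among the rises.

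Of the signalling members, BIRC3, a ubiquitin ligase at TNF receptors, was at 16.2, 20.3 and 17.8 CPM against 4.38, 5.91 and 6.4 CPM (1.71 ± 0.17). TRAF1, an adaptor of TNF receptors, averaged 6.6 ± 0.124 CPM against 1.93 ± 0.247 CPM (1.77 ± 0.25). MAP3K14 rose by 0.88 ± 0.09, IKBKE by 0.92 ± 0.12 and TRAF3, which holds NIK low, by 0.67 ± 0.08. The member that fell was CHUK, the IkB kinase subunit of the alternative branch (-0.30 ± 0.08), and this call was lost without YS37 replicate 1 and on the TPM scale.

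Against EWS-FLI1 15 of the 26 were called higher with YS37 and 0 lower, where 16.3% of all genes were higher. Against EWS-FLI1mut 20 were higher and 0 lower, where 14.5% of all genes were higher. RELB was higher than in both (0.97 ± 0.10 and 1.84 ± 0.11), as was NFKB2 (0.90 ± 0.07 and 1.11 ± 0.07). TRAF1 was higher than with EWS-FLI1mut (2.00 ± 0.25), while the difference from EWS-FLI1 was 0.16 ± 0.21 (adjusted p = 0.608). NFKB1 differed from EWS-FLI1 by 0.08 ± 0.10 (adjusted p = 0.596).

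**Figure D3:**
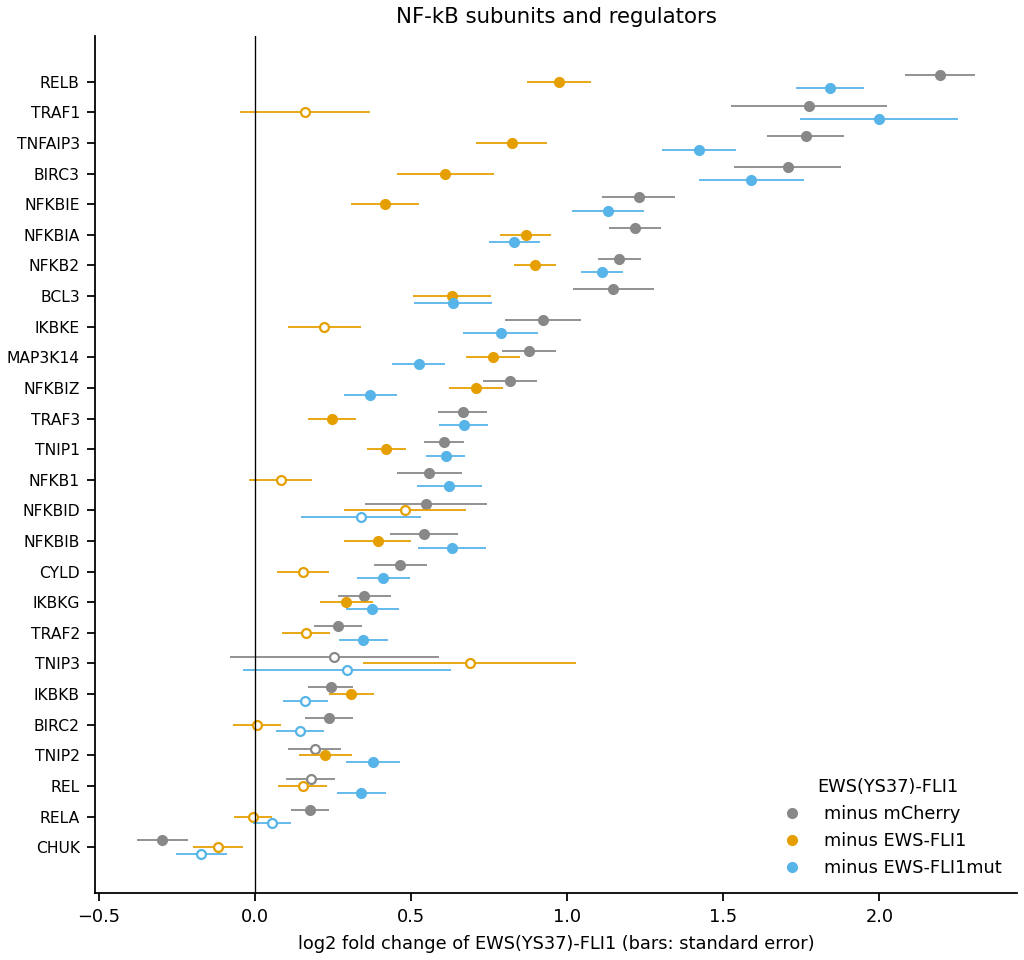
Log2 fold changes with standard errors (horizontal axis) of the 26 NF-kB subunits and regulators, EWS(YS37)-FLI1 minus mCherry (grey), minus EWS-FLI1 (orange) and minus EWS-FLI1mut (blue). Filled points were called, open points were not. RELB, TNFAIP3 and BIRC3 lie to the right of 0 in all 3 comparisons, and CHUK is the one member called below 0.

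Of 24 cytokines tested, 9 rose and 3 fell (37.5% and 12.5%, against 11.5% and 10.2% of all genes, median 0.32). Of 16 chemokines 5 rose and 2 fell (31.25% and 12.5%, median 0.30). Without single libraries 6 to 8 cytokines rose and 0 to 2 fell, none falling without mCherry replicate 2, and 1 chemokine fell without mCherry replicate 3 or YS37 replicate 1. IL6, an acute-phase cytokine, was at 3.69, 3.26 and 2.90 CPM against 0.369, 0.548 and 0.320 CPM (2.98 ± 0.54). IL24 rose by 3.23 ± 0.42 from 0.425 ± 0.0557 CPM. IL32 was the more abundant, at 57.3, 45.6 and 53.8 CPM against 14.7, 15.7 and 16.2 CPM (1.75 ± 0.10). TNFSF4, the OX40 ligand, rose by 3.05 ± 0.46, a call lost with transcript-length offsets (1.83). The libraries did not overlap for any of the 4.

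CCL2, a monocyte chemokine, was at 15.3, 14.3 and 20.7 CPM against 1.58, 2.74 and 3.10 CPM (2.76 ± 0.24), and CXCL8, a neutrophil chemokine, averaged 5.37 ± 0.276 against 1.88 ± 1.04 CPM (1.53 ± 0.34). CXCL14, a chemokine with a steady-state role in epithelia, went the other way, from 421, 568 and 561 CPM to 75.2, 57.3 and 65.6 CPM (-2.97 ± 0.12). CXCL14 was the most abundant member with mCherry, and the summed CPM of the chemokines was 116 to 137 with YS37 and 461 to 611 with mCherry. CXCL14 stood at 522 ± 43.8 CPM with EWS-FLI1 and 468 ± 54.6 CPM with EWS-FLI1mut, and was called lower with YS37 than in both (-2.98 ± 0.12 and -2.83 ± 0.12). CXCL8, at 7.12 ± 2.34 CPM with EWS-FLI1, was not called between the fusions (-0.41 ± 0.29).

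Of 37 cytokine receptors tested, 9 rose and 3 fell (24.3% and 8.11%, against 11.5% and 10.2% of all genes, median 0.03). After CSF2RB, IL7R was the leading abundant member, at 139, 171 and 159 CPM against 59.9, 60.5 and 57.2 CPM (1.40 ± 0.10), and it was higher than with EWS-FLI1 (1.25 ± 0.10) and EWS-FLI1mut (2.02 ± 0.11). TNFRSF9, the receptor 4-1BB, averaged 15.1 ± 0.699 against 7.23 ± 1.11 CPM (1.06 ± 0.12). IL2RG, the common gamma chain that pairs with IL7R, averaged 1.09 ± 0.211 against 0.122 ± 0.211 CPM (3.18 ± 0.80). The value of IL2RG rested on mCherry replicate 2, without which it was 7.34 because the remaining mCherry libraries held no count, and its call was lost with transcript-length offsets.

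Genes reached by growth-factor and stress signals were followed as further lists. Of 24 AP-1 and immediate early genes, 11 rose and 1 fell (45.8% and 4.17%, against 11.5% and 10.2% of all genes, median 0.27). FOSL1, an AP-1 subunit, was at 67.8, 53.6 and 64.2 CPM against 26.2, 25 and 23.5 CPM (1.31 ± 0.09), and MAFF at 50.5, 58.5 and 55.7 CPM against 22.2, 22.8 and 25.2 CPM (1.23 ± 0.10). MYC averaged 141 ± 6.55 against 80.2 ± 7.73 CPM (0.81 ± 0.07). JUN rose by 0.26 ± 0.05, whereas FOS was not called (-0.17 ± 0.14). DUSP1, a phosphatase that switches off MAP kinases, rose by 1.01 ± 0.10 and PHLDA1 fell by 0.94 ± 0.15 on the log2 scale. They were among 6 rises and 2 falls in 18 MAP kinase feedback genes (33.3% and 11.1%, against 11.5% and 10.2% of all genes).

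YAP and TAZ are coactivators that bind TEAD factors when the Hippo kinases are inactive. Of 26 YAP/TEAD factors and targets, 15 rose and 2 fell (57.7% and 7.69%, against 11.5% and 10.2% of all genes, median 0.38). CYR61, a secreted matricellular protein, was at 447, 466 and 474 CPM against 180, 168 and 168 CPM (1.42 ± 0.06). CTGF averaged 342 ± 12.6 against 219 ± 13.2 CPM (0.64 ± 0.06), CRIM1 328 ± 17.6 against 170 ± 21.7 CPM (0.95 ± 0.09) and ANKRD1 235 ± 7.41 against 176 ± 19.9 CPM (0.42 ± 0.07). The family was not uniformly higher than in the other fusion groups. CYR61 was higher with YS37 than with EWS-FLI1 (0.76 ± 0.06), while CTGF was lower (-0.38 ± 0.06). In all 10 of the 26 members were higher and 9 lower than with EWS-FLI1, where 16.3% and 14.8% of all genes were.

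MYOCD, a coactivator of serum response factor in smooth and cardiac muscle, had the largest fall of the genes named by size. It was at 1.99, 1.47 and 1.32 CPM with YS37 and at 26.3, 22.2 and 21.0 CPM with mCherry (-3.86 ± 0.32). MYOCD stood at 10.6 ± 4.18 CPM with EWS-FLI1 and 15.6 ± 1.05 CPM with EWS-FLI1mut, so the YS37 libraries were the lowest of all 4 groups. Of the 22 tested genes on the serum response factor and smooth muscle list, MYOCD included, 10 rose and 2 fell (median 0.29). These were 45.45% and 9.09%, against 11.5% and 10.2% of all genes. TAGLN was at 88.8, 104 and 109 CPM against 53.9, 41.5 and 51.3 CPM (1.04 ± 0.10), CNN1 rose by 0.91 ± 0.11, MYL9 by 0.68 ± 0.07 and SRF itself by 0.42 ± 0.06. TAGLN was lower than with EWS-FLI1 (-0.46 ± 0.09) and higher than with EWS-FLI1mut (0.95 ± 0.10). ACTA2, the smooth muscle actin, was not called (3.26 ± 1.07 against 2.29 ± 0.621 CPM).

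Several genes of the extracellular matrix fell. COL3A1, a fibrillar collagen of soft connective tissue, was at 16.7, 12.3 and 11.2 CPM with YS37 and at 124, 131 and 130 CPM with mCherry (-3.26 ± 0.12, adjusted p = 3.23e-15). COL11A1, a fibrillar collagen of cartilage, was at 50.1, 41.0 and 51.0 CPM against 109, 129 and 131 CPM (-1.38 ± 0.08). COL1A1, the main collagen of bone, was at 1113, 903 and 1016 CPM against 1789, 1572 and 1714 CPM (-0.74 ± 0.09). No YS37 library overlapped the mCherry libraries for these collagens, which for COL3A1 was a condition of being named by size. Of 32 collagens tested, 8 fell and 5 rose (25% and 15.6%, against 10.2% and 11.5% of all genes). Their median was -0.18, and COL13A1 was the largest rise.

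Compared with EWS-FLI1, 16 of the 32 collagens were lower with YS37 and 4 higher, where 14.8% of all genes were lower and 16.3% higher. COL1A1 averaged 2687 ± 39.9 CPM with EWS-FLI1, so the mCherry level lay between the 2 fusions. COL3A1, at 167 ± 20.2 CPM with EWS-FLI1, was lower with YS37 by 3.65 ± 0.12 on the log2 scale. MMP2, a gelatinase, was at 297, 234 and 261 CPM against 444, 508 and 522 CPM (-0.90 ± 0.09) and was also below its EWS-FLI1 level of 722 ± 40.3 CPM. MMP9, the other gelatinase, rose by 1.56 ± 0.25, with a spread from 22 to 49.3 CPM among the YS37 libraries. LTBP1, which anchors latent TGF-beta in the matrix, averaged 45 ± 2.12 against 101 ± 2.93 CPM (-1.17 ± 0.08).

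Of 16 osteoblast and bone matrix genes tested, 5 fell and 0 rose (31.25% and 0%, against 10.2% and 11.5% of all genes, median -0.37). These were SPP1 (-1.34 ± 0.22), COL1A1, BMP4 (-0.45 ± 0.07), RUNX2, the master factor of osteoblasts (-0.39 ± 0.08, from 58.7 ± 5.14 to 44.6 ± 3.72 CPM), and SPARC (-0.26 ± 0.06, from 1803 ± 56 to 1507 ± 55.6 CPM). The calls of RUNX2 and BMP4 were lost on the TPM scale. As defining genes of the osteoblast lineage from which U2OS derives, RUNX2, COL1A1 and SPARC were present in both groups, whereas SP7 did not reach the count minimum for testing, COL1A2 averaged 0.567 ± 0.150 and 0.393 ± 0.205 CPM, and ALPL averaged 4.20 ± 0.432 and 3.56 ± 0.298 CPM.

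Integrins split between 6 rises and 5 falls among 23 tested (26.1% and 21.7%, against 11.5% and 10.2% of all genes). ITGB3, the beta chain of the vitronectin receptor, was at 12.2, 7.21 and 9.52 CPM against 22.4, 32.0 and 31.4 CPM (-1.57 ± 0.14), and ITGA2, a collagen receptor chain, averaged 47.2 ± 7.10 against 28.7 ± 4.79 CPM (0.72 ± 0.12). ITGA11, another collagen receptor chain, was at 3.41, 2.00 and 2.49 CPM against 11.7, 13.2 and 15.7 CPM (-2.36 ± 0.21). Its fall was not called with transcript-length offsets (-0.75, adjusted p = 0.373), and its TPM was 1.33 ± 0.774 against 2.18 ± 0.627.

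Wnt pathway genes had 10 falls and 2 rises among 41 tested (24.4% and 4.88%, against 10.2% and 11.5% of all genes, median -0.13). Without single libraries they had 7 to 10 falls and 0 to 2 rises. WNT11, a ligand of the non-canonical branch, was at 1.31, 1.79 and 1.27 CPM against 6.85, 11.0 and 7.85 CPM (-2.54 ± 0.30). NKD1, a feedback inhibitor, was at 17.5, 11.9 and 12.9 CPM against 35.5, 36.7 and 38.1 CPM (-1.39 ± 0.13). ROR1, a Wnt receptor kinase, fell from 49.6 ± 5.79 to 27.7 ± 1.08 CPM (-0.84 ± 0.10), FZD4, a frizzled receptor, by 0.58 ± 0.10 and RNF43, which removes frizzled receptors, by 0.97 ± 0.17 on the log2 scale. AXIN2, a common reporter of canonical signalling, was called at -0.33 ± 0.09, though not without mCherry replicate 1. Against EWS-FLI1 13 members were lower and 2 higher, where 14.8% and 16.3% of all genes were. Against EWS-FLI1mut 16 were lower and 3 higher, where 12.7% and 14.5% of all genes were. The call of RNF43 was lost on the TPM scale.

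**Figure D4:**
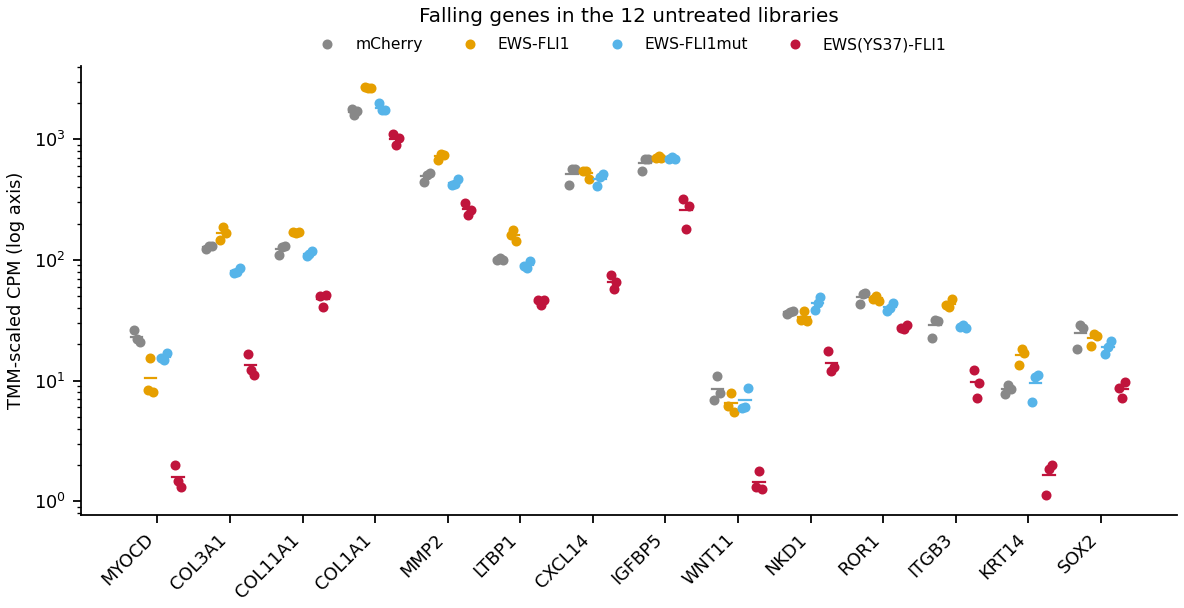
TMM-scaled CPM (log axis) of 14 falling genes in each untreated library, with points for libraries, colours for constructs and short lines for group means. For all 14 the 3 YS37 libraries lie below the 3 mCherry libraries, which naming by size required of some of them, such as MYOCD. COL3A1, COL1A1, MMP2 and KRT14 are among those with higher means with EWS-FLI1 than with mCherry.

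Epithelial and neuronal markers included rises and falls. KRT14, a basal keratin, was at 1.14, 1.84 and 1.99 CPM against 7.75, 9.26 and 8.54 CPM (-2.35 ± 0.22), while KRT18, a keratin of simple epithelia, rose from 203 ± 8.68 to 336 ± 7.64 CPM (0.73 ± 0.05). Keratin genes have close copies and pseudogenes, so their counts are uncertain. EHF, an epithelial ETS factor, was at 0.455, 0.527 and 0.255 CPM against 4.16, 3.23 and 2.40 CPM (-2.97 ± 0.42). Of 17 epithelial markers 4 rose and 5 fell (23.5% and 29.4%, against 11.5% and 10.2% of all genes). Of 15 neuronal markers 2 rose and 5 fell (13.3% and 33.3%). Without single libraries 1 to 2 neuronal markers rose and 3 to 5 fell, 3 falls being left without YS37 replicate 1. SOX2 fell from 24.7 ± 5.79 to 8.56 ± 1.28 CPM (-1.53 ± 0.16). Among the further genes named by size, SOSTDC1, an inhibitor of BMP and Wnt signals (-2.46 ± 0.33), DYNC1I1, a dynein chain (-2.39 ± 0.20, but -1.48 with transcript-length offsets), and HTR2A, a serotonin receptor (-2.38 ± 0.21), fell. Naming by size took only genes without overlap between the groups.

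Of 35 tested genes that the Ewing sarcoma literature gives as activated by EWS-FLI1, 5 rose and 5 fell (14.3% each, near the 11.5% and 10.2% of all genes, median -0.04). In this list 2 members fell by at least 1 on the log2 scale and 1 rose. The largest change was the fall of SOX2 (-1.53). PAPPA, a protease of IGF-binding proteins, was at 14.9, 15.8 and 15.8 CPM against 6.80, 6.70 and 6.78 CPM (1.20 ± 0.13), a call lost on the TPM scale. NR0B1 (1.18 ± 0.481 against 1.5 ± 0.758 CPM) and NKX2-2 (8.81 ± 1.25 against 7.21 ± 1.12 CPM), established targets in Ewing sarcoma cells, were not called, and neither was called different from its EWS-FLI1 level (-0.22 ± 0.49 and 0.01 ± 0.15). Of 21 genes given as repressed 9 rose and 6 fell (42.9% and 28.6%, against 11.5% and 10.2% of all genes, median 0.12). Among ETS and FET genes other than the construct parts, ETS1 rose from 83.2 ± 2.46 to 125 ± 1.71 CPM (0.59 ± 0.06) and ETV4 by 0.53 ± 0.08.

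Promoter windows of the leading genes were searched for CCGGAA, an extended form of the GGAA core, and for GGAAGGAA, on both strands. The sets of windows compared were not matched for base composition. The windows of 22.9% of tested genes held CCGGAA. It stood in 9.43% of the 159 genes with a window that rose by at least 1 and 13.8% of the 159 that fell by at least 1. GGAAGGAA stood in 3.13%, 1.89% and 4.40% of the same windows, and the matches of these motifs can overlap. The window of ESM1 (chr5:54985594-54985843, minus strand), shown as the member with the largest rise among the endothelial genes, held neither. GGAA alone was not searched for, and it occurs in this window.
ESM1: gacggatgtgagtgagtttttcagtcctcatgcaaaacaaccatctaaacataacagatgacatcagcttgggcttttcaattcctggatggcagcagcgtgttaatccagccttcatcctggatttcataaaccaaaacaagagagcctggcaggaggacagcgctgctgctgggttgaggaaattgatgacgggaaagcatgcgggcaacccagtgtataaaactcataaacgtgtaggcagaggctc

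Sites farther from the start, where repeats of GGAA are known to be bound, lie outside these windows.

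Stress-response genes rose by small amounts. Of 36 ATF4 and amino acid response genes 20 rose and 2 fell (55.6% and 5.56%, against 11.5% and 10.2% of all genes). Their median was 0.28, and 1 rose by at least 1. PPP1R15A, which directs a phosphatase to eIF2-alpha, was at 57.5, 53.7 and 53.5 CPM against 28.0, 26.9 and 26.6 CPM (1.01 ± 0.07). SHMT2, a mitochondrial serine enzyme, averaged 279 ± 16.1 against 185 ± 9.91 CPM (0.59 ± 0.05), SESN2 rose by 0.60 ± 0.09 and TRIB3 by 0.44 ± 0.09. The falls were SLC7A11, the cystine transporter (-0.99 ± 0.08, from 154 ± 9.42 to 77.4 ± 4.71 CPM), and ASNS, asparagine synthetase (-0.34 ± 0.08). Against EWS-FLI1 28 of the 36 were higher with YS37 and 2 lower (16.3% and 14.8% of all genes were). Against EWS-FLI1mut 22 were higher and 1 lower (14.5% and 12.7% of all genes were). SLC7A11 was at 75.9 ± 5.69 CPM with EWS-FLI1 and was not called different there (0.03 ± 0.09). Of 20 cytosolic aminoacyl-tRNA synthetases 7 rose and 1 fell against mCherry (35% and 5%). Of the 20, 16 were higher than with EWS-FLI1 (16.3% of all genes were), such as WARS (0.55 ± 0.07).

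Of 28 p53 targets 14 rose and 1 fell (50% and 3.57%, against 11.5% and 10.2% of all genes, median 0.23). GADD45A was at 72.1, 68.5 and 75.4 CPM against 35.8, 34.6 and 31.6 CPM (1.08 ± 0.08), PLK3 rose by 1.07 ± 0.08, CDKN1A, the CDK inhibitor p21, by 0.56 ± 0.06 and MDM2 by 0.27 ± 0.07. GDF15, a stress cytokine, averaged 7.01 ± 0.608 against 2.42 ± 0.729 CPM (1.52 ± 0.20). GDF15 stands in 2 of the lists, as do several other genes.

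Of 40 G2/M genes 15 fell and 1 rose (37.5% and 2.5%, against 10.2% and 11.5% of all genes, median -0.10). CENPE, a kinetochore motor, was at 59.3, 59.8 and 58.0 CPM against 117, 116 and 122 CPM (-1.0 ± 0.11), CENPF fell from 515 ± 13.0 to 316 ± 53.4 CPM (-0.71 ± 0.09), ASPM by 0.61 ± 0.08 and MKI67 by 0.31 ± 0.06 on the log2 scale. UBE2C rose (0.30 ± 0.06). Without single libraries 10 to 17 fell and 1 to 3 rose. Of 50 E2F and G1/S genes 3 rose and 6 fell against mCherry (6% and 12%, median -0.03). By contrast, 35 were higher than with EWS-FLI1 (16.3% of all genes were). Against mCherry 1 rise and 3 falls were left without YS37 replicate 1, and 3 falls without YS37 replicate 3. Of 15 replication-dependent histones tested, whose RNA largely lacks a polyA tail, 7 fell and 0 rose (46.7% and 0%). Their summed CPM was 293 to 306 against 357 to 386. The falls numbered 4 without mCherry replicate 3 or YS37 replicate 3, and HIST1H2BJ, HIST1H2BD and HIST2H2BE were among those whose calls were lost without some library. The mitochondrial share of counts overlapped between the groups, and the part of RNA quality in these falls was not tested.

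Hypoxia and glycolysis genes had 14 rises and 3 falls among 32 tested (43.75% and 9.375%, against 11.5% and 10.2% of all genes). Their median was 0.21, and they had 11 to 14 rises and 1 to 2 falls without single libraries. EPAS1, the hypoxia factor HIF-2alpha, was at 43.8, 43.2 and 41.2 CPM against 16.3, 12.4 and 12.9 CPM (1.62 ± 0.11). HK2, a hexokinase, averaged 48.2 ± 3.24 against 22.5 ± 3.53 CPM (1.10 ± 0.10) and was higher than with EWS-FLI1 (1.19 ± 0.10). VEGFA rose by 0.47 ± 0.08. The largest change of the list was a fall, that of STC1, from 9.85 ± 0.771 to 2.62 ± 0.450 CPM (-1.90 ± 0.21). Among 43 genes induced by interferon, 9 rose and 8 fell (20.9% and 18.6%), but 5 rose without mCherry replicate 1. There were 4 falls without mCherry replicate 2 or YS37 replicate 1, and 5 without mCherry replicate 3 or YS37 replicate 3. IFIT3 averaged 6.17 ± 0.260 against 1.70 ± 0.464 CPM (1.85 ± 0.37) and IFIT2 3.52 ± 0.112 against 1.00 ± 0.451 CPM (1.82 ± 0.41), while IFI44L fell from 4.86 ± 0.959 to 1.79 ± 0.359 CPM (-1.43 ± 0.24), a call lost on the TPM scale. Cholesterol genes (4 rises, 0 falls among 24, 16.7% and 0%), NRF2 genes (5 and 3 among 25, 20% and 12%) and ER chaperones (5 and 3 among 22, 22.7% and 13.6%) had medians within 0.06 of 0. Without single libraries the ER chaperone counts came down to 2 or 3 rises (mCherry replicate 3, YS37 replicate 3) and 1 fall (mCherry replicate 2, YS37 replicate 1 or 3).

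**Figure D5:**
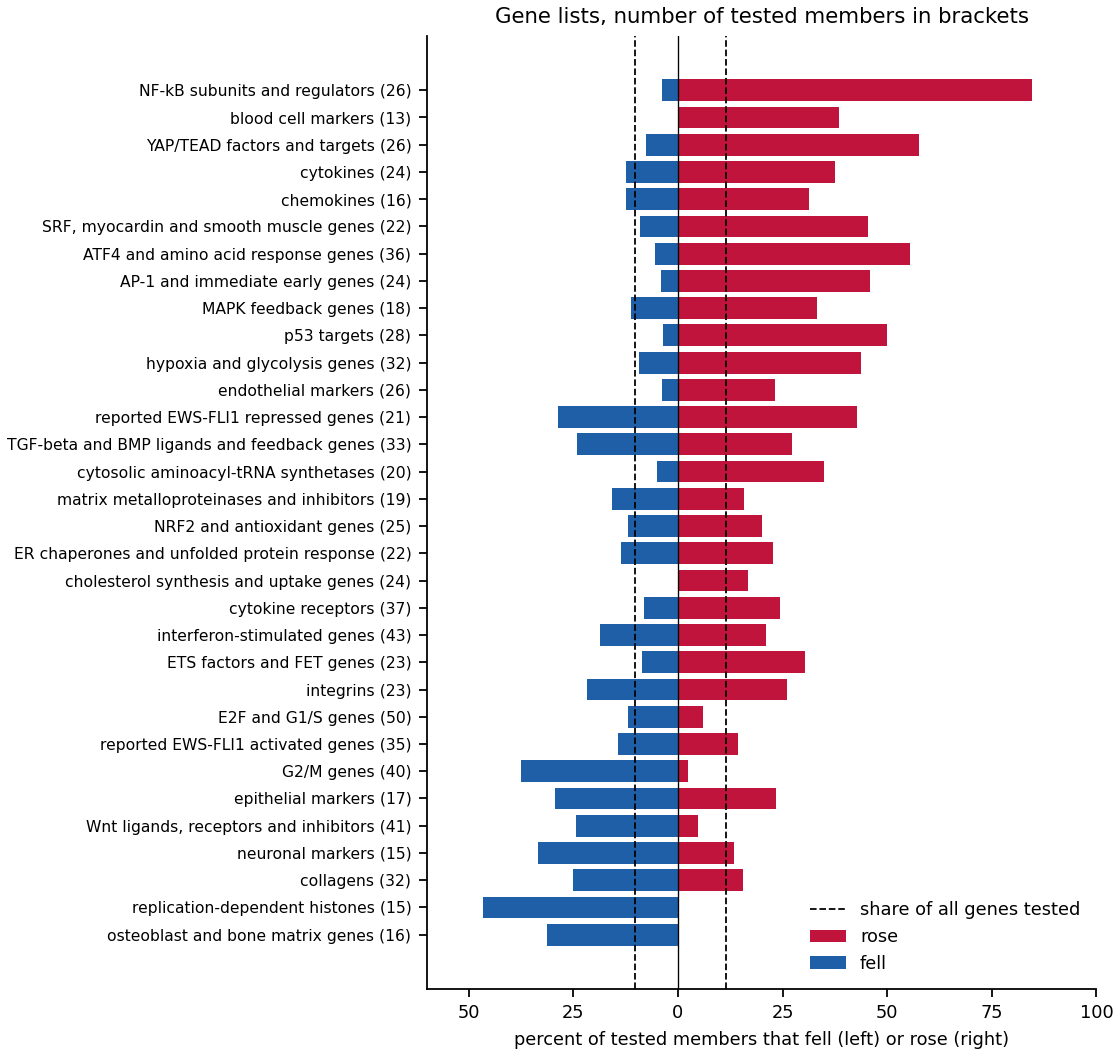
Percent of the tested members of each of 32 gene lists that rose (right, red) or fell (left, blue), ordered by the list's median log2 fold change, with dashed lines at the shares of all genes tested (11.5% and 10.2%). The NF-kB list has the longest bar to the right (84.6%), and the histone list the longest to the left (46.7%). Lists share some genes, and their members were chosen with earlier results known.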

How the data were processed

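The authors deposited 1 transcript table per library, with kallisto estimated counts, TPM and effective lengths per transcript, per the file headers. The deposited expected counts carry no normalization, and the deposited TPM are relative to length and library. The submitters' processing notes name kallisto 0.46, CASAVA and hg38. The transcript set and strandedness are not given in the sources used here, and 2 library kits are named without saying which library used which. Counts were summed per gene with GENCODE 29 by versionless transcript identifier (169797 of 188753 transcripts, 2.59% to 2.74% of counts unmatched and left out) and rounded.

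All 18 libraries entered 1 edgeR 4.0.16 quasi-likelihood fit in R 4.3.3 (TMM factors, filterByExpr, 6 group means, 12 residual degrees of freedom), so standard errors pool the spread of all groups. Each was derived from the fold change and its F statistic (absolute value divided by the root of F). The procedure was run on simulated counts with 200 changed genes and a spread common to all genes. That is a simpler setting than these data, with far fewer changed genes than were called here. DESeq2 1.42.0 and limma 3.58.1 on deposited TPM (pseudocounts 1 and 0.1) were alternatives, with other scalings, filters, length offsets, library subsets and single libraries left out. No 2 libraries were identical. Same-numbered YS37 and mCherry libraries did not deviate together (r of -0.027, 0.029 and 0.061), so numbers were not treated as pairs.

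Genes were named by rule: FLI1, EWSR1, CSF2RB, ESM1 and ROBO4, and, for each direction, the 15 called protein-coding genes that changed most, at 5 CPM or more in the higher group and without overlap, and up to 6 called members per list at 1 CPM or more. Not every such gene is printed. Further list members and some others were named after their values were seen. The comparison, lists and tests were chosen with earlier results of these data known. Promoters come from RefSeq (GRCh38.p14), matched by symbol for 12187 of 16786 genes.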

Additional observations from a re-analysis of the deposited data

How the results depend on the processing

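Against mCherry, 1937 genes rose and 1708 fell. Length offsets gave 1083 and 880, limma on log2(TPM + 1) 779 and 1139, limma on log2(TPM + 0.1) 749 and 1104, and a test against a log2 change of 0.5 left 200 and 204. That last test left 271 higher and 437 lower against EWS-FLI1 and 214 and 300 against EWS-FLI1mut. With a replicate block, 2003 rose and 2068 fell in the 12 untreated libraries (1843 and 1930 without it) and 1941 and 1729 in the 6 compared (1763 and 1576). Without single libraries rises ranged from 1424 to 1855 and falls from 1258 to 1638, and DESeq2 gave 2033 and 1839. Scaling by upper quartiles gave 1711 and 2002, and no scaling 1602 and 2138. The median of all genes stayed within 0.06 of 0 in every setting. Of 235 genes followed, 82 lost their call in some setting other than the test against 0.5. IKBKB was called at 0.24 but lay at -0.021 and -0.022 in the limma fits, the only followed gene to change sign. In these fits falls outnumbered rises, and the pseudocount of 1 gave smaller values for low genes such as CDH5, MC5R and MYOCD. Depth limits genes at a few CPM or less, whose standard errors were wider.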

Other observations

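Some genes outside the lists also changed, and were picked after their values were seen. SDC4, a cell-surface heparan sulfate proteoglycan, was at 248, 262 and 268 CPM with YS37 and at 113, 111 and 113 CPM with mCherry (1.21 ± 0.07). VEGFC, a growth factor of lymphatic vessels, averaged 16.8 ± 0.702 against 5.69 ± 1.15 CPM (1.55 ± 0.17), and EDN1, the vasoconstrictor peptide endothelin, 33.0 ± 3.77 against 12.6 ± 0.579 CPM (1.39 ± 0.16). The acute-phase gene SAA1 was at 3.87, 3.32 and 3.66 CPM against 0.211, 0.183 and 0.160 CPM (4.24 ± 0.55), and PTX3, a pentraxin, rose by 1.30 ± 0.18. STAT5A, a transcription factor downstream of CSF2RB, averaged 16.1 ± 1.26 against 7.02 ± 1.54 CPM (1.19 ± 0.17). NLRP3, the sensor that activates CASP1, rose by 1.44 ± 0.26, a call lost on the TPM scale. For each of these the YS37 libraries were all above the mCherry libraries.

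On the falling side ENC1, an actin-binding protein, was at 225, 177 and 209 CPM against 544, 654 and 613 CPM (-1.57 ± 0.09), and IGFBP5 at 318, 180 and 281 CPM against 542, 682 and 683 CPM (-1.29 ± 0.13). SEMA3C, a secreted semaphorin, averaged 72.3 ± 4.42 against 168 ± 12.6 CPM (-1.22 ± 0.07). PDGFRA, a growth-factor receptor of mesenchymal cells, fell from 46.3 ± 5.68 to 19.3 ± 1.90 CPM (-1.27 ± 0.11). LGR4 and LGR5, receptors for R-spondins that strengthen Wnt signals, fell by 1.15 ± 0.14 and 1.27 ± 0.20 on the log2 scale. All 6 were also called lower with YS37 than with EWS-FLI1 and with EWS-FLI1mut.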
